A study of Mus musculus with 95 samples.

Results

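The comparison was of mouse embryonic stem cell libraries labelled Pcgf3/5/6-/-, a triple knockout, with libraries labelled Pcgf6-/-, and asked what loss of Pcgf3 and Pcgf5 added to loss of Pcgf6. It used 4 of the 14 RNA-seq libraries of a series of 95 samples, 2 for each line, and all 23377 genes of the count table, of which 14521 had enough reads to be tested. Every line came from E14 embryonic stem cells kept on gelatin in medium with serum, leukaemia inhibitory factor (LIF) and inhibitors of GSK3β and MEK1/2, so the controls carried these agents too. The knockouts were made with Cas9 and guide RNAs, were isolated as clones, and per the labels' protocols the lines lacking several genes came from further editing of knockout clones. The count table names 1 clone for each line, and the authors' deposited comparison tables give the Pcgf6-/- line another clone name than the count table does. Wild-type E14 and Pcgf3/5-/- cells, with 2 libraries each, served as a second contrast that shares no library with the first. Nothing in the labels says that the libraries of a line came from separate cultures, so p-values measure only the spread between 2 libraries of 1 clone, which may be technical, and clone and genotype cannot be told apart.

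PCGF proteins are the alternative subunits that set the type of Polycomb repressive complex 1 (PRC1), in which RING1A or RING1B places ubiquitin on histone H2A (the mark H2AK119ub1). PCGF6 works with MAX, MGA, E2F6 and L3MBTL2 and is known in embryonic stem cells for keeping germline genes silent. PCGF3 and PCGF5 share AUTS2, FBRS and casein kinase 2 as partners, and are known for broad H2AK119ub1 and for the Polycomb response to Xist RNA. PRC2, the enzyme of H3K27me3 that contains SUZ12, is a separate complex that often occupies the same promoters.

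The targeted transcripts were examined first. Pcgf6 (chromosome 19, 47108109 to 47125380 on mm9) had no read in either Pcgf6-/- library, and 44.2 and 39.6 CPM (counts scaled to the TMM-adjusted size of the library) in the libraries labelled Pcgf3/5/6-/-, against a mean of 35.6 CPM in wild-type cells. The Pcgf6 transcript was thus at least 202-fold higher in the libraries labelled Pcgf3/5/6-/- (bound from 3 counts over the Pcgf6-/- group). That goes against the label only if it is read as loss of the transcript, and transcript counts do not show whether protein is made. Pcgf5 (chromosome 19, 36453557 to 36530682) stood at 40.7 and 44.8 CPM in Pcgf6-/- and at 17.3 and 14.4 CPM in the libraries labelled Pcgf3/5/6-/-, a log2 fold change of -1.42 with an SE of 0.16 (adjusted p = 3.24e-18 by edgeR's quasi-likelihood test). Its level in wild-type cells was 12 CPM on average and in Pcgf3/5-/- 5.69 and 4.72 CPM, so Pcgf5 in the libraries labelled Pcgf3/5/6-/- lay above the wild-type mean. Pcgf3 (chromosome 5, 108890251 to 108935995) read 19.7 and 18.4 CPM in Pcgf6-/- and 14.3 and 14.4 CPM in the libraries labelled Pcgf3/5/6-/-, a log2 difference of -0.41 (SE 0.20) that missed the threshold (edgeR adjusted p = 0.0588). A small Cas9 deletion can leave a transcript countable, so the Pcgf3 and Pcgf5 levels check little. The same limit holds for the Pcgf6 transcript in the libraries labelled Pcgf3/5/6-/-.

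Genes of the Y chromosome separated the lines as well. Eif2s3y, a translation factor gene, had 0 and 0.155 CPM in Pcgf6-/- and 63.5 and 67.4 CPM in the libraries labelled Pcgf3/5/6-/-, and 0.139 and 0.197 CPM in Pcgf3/5-/-. Ddx3y, an RNA helicase gene, had no read in Pcgf6-/- and 17.0 and 23.1 CPM in the libraries labelled Pcgf3/5/6-/-, at least 95.6-fold more, while its wild-type mean was 103 CPM. Wild-type cells carried Y transcripts, the Pcgf6-/- and Pcgf3/5-/- lines had almost none, and the libraries labelled Pcgf3/5/6-/- had them at an intermediate level. For that reason the group is called by its label throughout, and each direction given for it below is that of the libraries so labelled; what sets the Pcgf6 and Y transcripts was not tested.

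**Figure D1:**
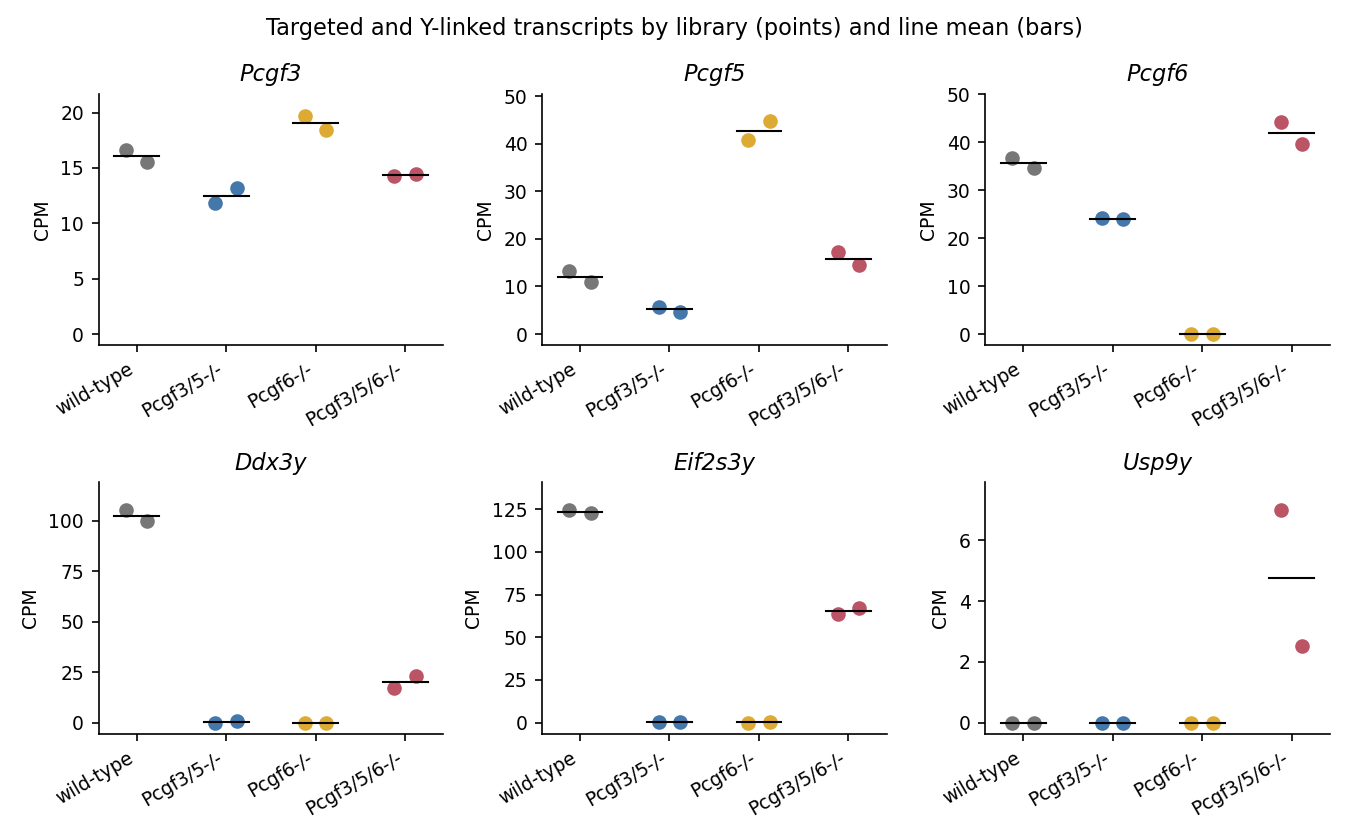
CPM of the 3 targeted genes and of 3 Y-linked genes (vertical axes, linear) in wild-type, Pcgf3/5-/-, Pcgf6-/- and Pcgf3/5/6-/- libraries, as labelled (horizontal axis); points are libraries and black bars the mean of 2. Pcgf6 is at 0 in both Pcgf6-/- libraries and at 44.2 and 39.6 CPM in those labelled Pcgf3/5/6-/-, which also hold Eif2s3y at 63.5 and 67.4 CPM.

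Depth differed between the lines: the libraries labelled Pcgf3/5/6-/- held 3120754 and 2912086 counts, the Pcgf6-/- libraries 7494996 and 6292628. Gene counts of the Pcgf6-/- pair differed by 1.94 times the sampling noise (chi-square per degree of freedom) and those of the pair labelled Pcgf3/5/6-/- by 1.18 times. The Pcgf3/5-/- pair differed most, by 5.79 times. It enters the second contrast and the interaction, where a single fit covers all 4 lines. Counts of the 2 wild-type libraries lay closer together than sampling noise gives (0.942 times, chi-square p = 1), so these libraries differed by less than the sampling noise; they may be 1 library deposited more than once, and were counted as 1 sample wherever a wild-type value is given as a mean. Tests against wild-type cells were also run with both summed as 1 sample. Pluripotency markers such as Pou5f1, Nanog and Esrrb were expressed in all 4 lines, as the labelled cell type has them.

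Between the libraries labelled Pcgf3/5/6-/- and Pcgf6-/-, 9575 of 14521 genes differed (edgeR quasi-likelihood test, Benjamini-Hochberg adjusted p below 0.05), which is 65.9% of the genes tested. Of these, 4808 (33.1%) were higher and 4767 (32.8%) lower in the libraries labelled Pcgf3/5/6-/-, and the median log2 fold change over all genes was -0.0064. The high share goes with a small spread between the libraries of each line compared here, a biological coefficient of variation of 4.22%. A difference of at least 2-fold, the size of most genes described below, was found for 3390 genes (23.3%), 1733 higher (11.9%) and 1657 lower (11.4%). Every count over a gene list is to be read against these shares, since a list with shares near 33.1% and 32.8% is like the table as a whole.

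Among genes with clear expression (a mean of at least 3 log2 CPM), Cdkn1c, the imprinted gene of the cell cycle inhibitor p57 (chromosome 7, 150644255 to 150646955), had the largest rise. It stood at 3.77 and 3.25 CPM in Pcgf6-/- and at 136 and 131 CPM in the libraries labelled Pcgf3/5/6-/-, a log2 fold change of 5.23 (SE 0.14), and at a mean of 2.57 CPM in wild-type cells. Dlx3 (chromosome 11, 94981403 to 94986610), a homeobox factor of placenta and epidermis, went from 1.88 and 1.24 to 51.2 and 41.1 CPM. Hand1 (chromosome 11, 57642207 to 57646320), a basic helix-loop-helix factor of trophoblast giant cells and heart, went from 1.38 and 1.24 to 34.3 and 41.4 CPM. Dlx3 and Hand1 stood at 0.569 and 0.720 CPM in wild-type cells and had no read in Pcgf3/5-/-.

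The other 7 genes with the largest rises were of mixed kinds. Serpinb9e, a serine protease inhibitor gene of a multi-copy family, went from 1.88 and 1.70 to 42.2 and 45.4 CPM, and Bgn, which encodes the matrix proteoglycan biglycan, from 2.14 and 2.32 to 49.6 and 41.4 CPM. Psmb8, an immunoproteasome subunit, rose from 1.88 and 1.70 to 32.9 and 34.2 CPM, and Sct, the hormone secretin, from 7.79 and 5.27 to 99.5 and 116 CPM. Slc38a5, an amino acid transporter, rose from 2.39 and 1.86 to 28.3 and 38.6 CPM. The last 2 stood higher in wild-type cells than in Pcgf6-/-, as Slc38a5 did at 3.64 CPM. Tfeb, the master factor of lysosome genes, stood at 48.4 CPM in wild-type cells, 5.15 and 4.34 CPM in Pcgf6-/- and 82.5 and 81.8 CPM in the libraries labelled Pcgf3/5/6-/-. Slco4a1, an organic anion transporter, stood at 10.9 CPM in wild-type cells, at 2.39 and 1.24 CPM in Pcgf6-/- and at 55.5 and 52.3 CPM in the libraries labelled Pcgf3/5/6-/-.

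Several of the 10 genes with the largest falls are known from germ cells. Mgat4c, a glycosyltransferase gene (chromosome 10, 101144121 to 101854103), fell from 35.8 and 37.2 CPM in Pcgf6-/- to 1.33 and 1.80 CPM, a log2 fold change of -4.53 (SE 0.29). Nlrp14, expressed in germ cells, fell from 54.8 and 54.7 to 4.32 and 8.29 CPM, and Magea8, a cancer-testis gene on the X chromosome, from 33.0 and 34.6 to 3.66 and 4.68 CPM. Cox7b2, a testis form of a cytochrome oxidase subunit, fell from 47.7 and 49.3 to 5.32 and 6.13 CPM, and Pzp, a protease-binding plasma protein, from 39.9 and 38.9 to 3.99 and 5.05 CPM. Hus1b, a paralogue of a DNA damage checkpoint clamp, went from 22.2 and 22.6 to 2.33 and 2.88 CPM, and Cd200r2, a receptor of the CD200R family, from 46.0 and 43.4 to 5.32 and 5.41 CPM. The remaining 3 were Ccdc152, from 41.8 and 49.0 to 5.65 and 2.88 CPM, C86695, from 30.6 and 20.5 to 3.33 and 3.24 CPM, and Gm5622, from 44.1 and 46.3 to 6.99 and 4.68 CPM. The naming rule required that the libraries of both lines did not overlap, a state reached by 82.4% of all genes tested (40.8% higher, 41.6% lower).

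Genes of at least 2-fold change were also ranked by the difference in CPM, which is not corrected for gene length. Pkm, a glycolytic kinase, rose from 484 and 568 to 1042 and 1107 CPM, and Slc2a1, a glucose transporter, from 347 and 387 to 792 and 807 CPM. Eno1, another glycolytic enzyme, went from 381 and 452 to 854 and 908 CPM, and Hspa8, a chaperone, from 460 and 547 to 1005 and 1077 CPM. Dusp9, a phosphatase that inactivates ERK, rose from 91.1 and 84.8 to 600 and 614 CPM, a log2 fold change of 2.79 (SE 0.10). In the other direction Ctsc, a lysosomal protease, went from 210 and 229 to 81.5 and 86.5 CPM, and Igf2bp3, an RNA-binding protein of fetal tissues, from 186 and 190 to 54.9 and 53.7 CPM. Dennd4c, an exchange factor for a RAB GTPase, fell from 172 and 184 to 56.2 and 53 CPM.

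Subunits of the complexes themselves were described next. Of 10 genes for PCGF3/5 complexes, 4 were higher and 3 lower, with a median log2 fold change of -0.03. Auts2, which recruits casein kinase 2, rose by 0.66 and the kinase subunit Csnk2b by 0.54, while the catalytic subunit Csnk2a2 went from 26.2 and 23.7 to 16.6 and 14.8 CPM, a change of -0.67. Of 11 genes for PCGF6 complexes, 5 were higher and 2 lower (median 0.12). Besides Pcgf6 itself, Max, the partner of MGA on E-box DNA, rose from 126 and 122 to 197 and 211 CPM, and the deacetylase gene Hdac1 from 263 and 297 to 410 and 417 CPM. Mga fell from 113 and 115 CPM to 94.8 CPM in both libraries, and stood at a mean of 223 CPM in wild-type cells.

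Of the other PRC1 genes, 11 of 21 were higher and 6 lower, with a median of 0.31. The chromodomain subunits of canonical PRC1 were among the higher ones: Cbx7, the main one in stem cells, went from 52.4 and 54.6 to 121 and 133 CPM, and Cbx2 from 40.1 and 36 to 99.5 and 84.7 CPM. Bcor, which belongs to the PCGF1 complex, rose from 32.4 and 28.2 to 78.8 and 81.4 CPM, and Ring1, the gene of RING1A, from 4.27 and 3.56 to 9.98 and 11.9 CPM. Bmi1, which encodes PCGF4, fell from 29.6 and 26.7 to 9.65 and 12.3 CPM, Pcgf1 from 50.0 and 47.7 to 27.3 and 35.7 CPM, and Rnf2, the gene of RING1B, was at 255 and 286 against 238 and 240 CPM, a difference that missed the threshold. Of 11 PRC2 genes, 3 were higher and 2 lower: the accessory gene Phf19 rose from 1.38 and 0.930 to 15.6 and 9.01 CPM, and Suz12 fell from 113 and 118 to 69.5 and 67.7 CPM.

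Trophoblast genes were the list that moved most uniformly. All 16 tested members were higher in the libraries labelled Pcgf3/5/6-/- than in Pcgf6-/- (of all genes, 33.1%), 15 of them by at least 2-fold, with a median log2 fold change of 1.65 against -0.0064 for all genes. Their summed level was 832 and 849 CPM in Pcgf6-/-, 2638 and 2731 CPM in the libraries labelled Pcgf3/5/6-/-, and 343 and 353 CPM in the wild-type pair, with no overlap between lines. Over 14 alternative fits between 14 and 17 members were higher and 0 lower.

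The keratins and transcription factors of the list carried most of this. Krt7, a keratin of simple epithelia and trophoblast (chromosome 15, 101241474 to 101260744), went from 25.4 and 20.5 to 227 and 228 CPM, a log2 fold change of 3.30 (SE 0.09), from a wild-type mean of 0.717 CPM. Krt8 and Krt18, which pair in one filament, went from 218 and 238 to 590 and 633 CPM and from 157 and 161 to 441 and 448 CPM. Both rises were well outside the gap between the libraries of a line. Tfap2c, a factor that opens the trophoblast programme, rose from 33.9 and 32.5 to 175 and 167 CPM, and Gata3, another such factor, from 45.6 and 38.3 to 101 and 102 CPM. Plac1, a placental membrane gene on the X chromosome, rose from 14.6 and 13.5 to 151 and 163 CPM. Cdx2, the homeobox factor that specifies trophectoderm, differed from the rest in its order across lines: it was at 75.1 CPM in wild-type cells, at 4.65 and 6.20 CPM in Pcgf6-/- and at 19.6 and 21.6 CPM in the libraries labelled Pcgf3/5/6-/-.

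Further members rose from low or moderate levels. Elf5, a factor of trophoblast stem cells, went from 4.52 and 3.56 to 12 and 7.21 CPM, and Esx1, a placental homeobox gene, from 14.4 and 12.2 to 48.6 and 46.5 CPM. Rhox6 and Rhox9, homeobox genes of a multi-copy X-linked cluster whose reads may be shared between copies, rose by log2 fold changes of 1.96 and 2.04. Id2, an inhibitor of basic helix-loop-helix factors, rose least, by a log2 fold change of 0.64 (SE 0.08). The spongiotrophoblast marker Tpbpa had no read in Pcgf6-/- and a mean of 1.21 CPM in the libraries labelled Pcgf3/5/6-/-, too low for the test. In bulk libraries more cells of a type and more RNA per cell cannot be told apart, for these and all other lists.

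The DNA just upstream of Krt7 is shown because the promoters of higher genes were, on the whole, richer in CG pairs than those of lower genes (values below). The 250 bases before its start (RefSeq, GRCm38.p6, chr15:101412153-101412402, plus strand) read as follows, with CG pairs in capitals, of which there were 16.
Krt7: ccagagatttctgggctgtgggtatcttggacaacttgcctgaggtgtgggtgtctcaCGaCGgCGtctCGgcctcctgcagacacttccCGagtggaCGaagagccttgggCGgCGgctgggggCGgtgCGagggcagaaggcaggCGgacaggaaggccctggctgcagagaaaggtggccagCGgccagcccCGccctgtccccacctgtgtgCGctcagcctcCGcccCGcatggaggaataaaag

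Imprinted genes, expressed from 1 parental copy and many of them active in placenta, held several of the largest changes. Of 31 tested, 17 were higher, 6 lower and 8 not called, with a median of 0.35, so the list as a whole was mixed. Igf2, the fetal growth factor (chromosome 7, 149836673 to 149852721), went from 21.9 and 21.4 to 288 and 292 CPM, a log2 fold change of 3.74 (SE 0.09), with a wild-type mean of 0.855 CPM. H19, the noncoding RNA next to it, went from 88.7 and 87.7 to 212 and 233 CPM. Peg10, a retrotransposon-derived gene needed for the placenta (chromosome 6, 4697306 to 4710514), rose from 40.7 and 33.8 to 456 and 445 CPM. Dlk1, a Notch-related growth regulator, rose from 1.13 and 1.86 to 15.3 and 14.1 CPM, and Phlda2, a brake on placental growth, from 80.1 and 84.5 to 255 and 276 CPM.

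Lower imprinted genes included Zdbf2, which went from 63.6 and 49.0 to 23.6 and 16.6 CPM, and Plagl1, a zinc finger factor, from 13.7 and 13.8 to 4.66 and 6.13 CPM. Both stood far higher in wild-type cells, at 163 and 99.6 CPM. Cdkn1c, Phlda2, Slc22a18 and Ascl2, neighbours in the imprinted cluster of distal chromosome 7, were all among the higher genes, while the noncoding RNA of that cluster, Kcnq1ot1, was at 190 and 205 against 179 and 171 CPM and missed the threshold.

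**Figure D2:**
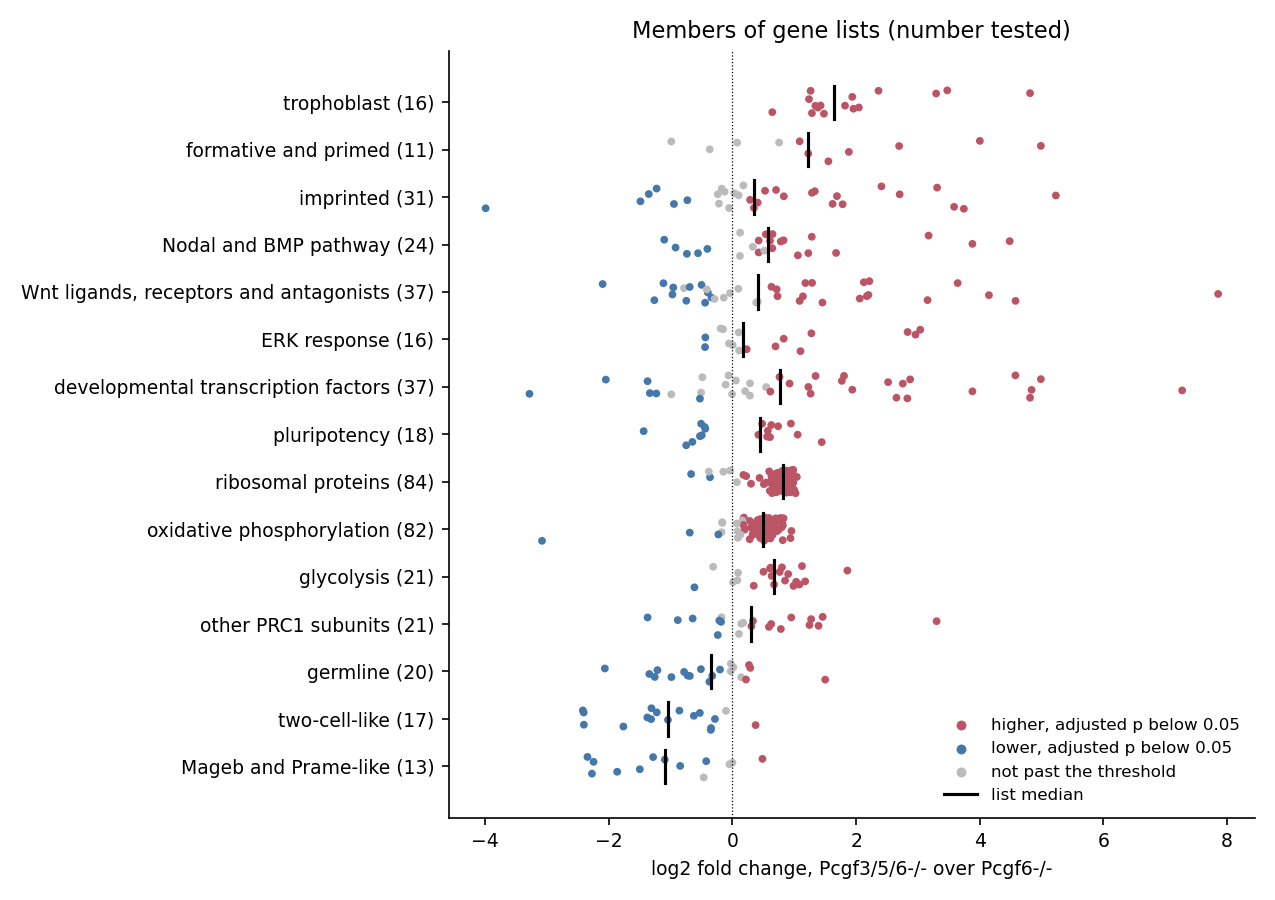
Log2 fold change of the libraries labelled Pcgf3/5/6-/- over Pcgf6-/- (horizontal axis) for the tested members of 15 gene lists (rows, with the number tested); each point is a gene, red where higher and blue where lower at an adjusted p below 0.05, grey otherwise, and the black bar is the list's median. All 16 trophoblast genes lie to the right of 0, and 15 of 17 2-cell-like genes are blue and to the left.

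Genes of the formative and primed states, the stages after naive pluripotency, rose in part. Of 11 tested, 7 were higher and 0 lower, all 7 by at least 2-fold, with a median of 1.23. Otx2, the factor that starts this exit, went from 1.26 and 0.465 to 33.3 and 25.2 CPM, a log2 fold change of 4.99 (SE 0.31), and stood at a mean of 4.79 CPM in wild-type cells. The de novo DNA methyltransferases Dnmt3a and Dnmt3b went from 80.0 and 73.8 to 188 and 173 CPM and from 72.6 and 63.7 to 207 and 195 CPM. Cldn6, a tight junction gene, rose from 32.5 and 27.6 to 112 and 111 CPM. Pou3f1 and Zic2, 2 other factors of the list, stood at 2.01 and 1.39 against 2.66 and 3.24 CPM and at 6.15 and 5.89 against 4.32 and 5.05 CPM, without passing the test.

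Pluripotency genes were split, 10 of 18 higher and 8 lower. Pou5f1 (Oct4) went from 248 and 286 to 504 and 525 CPM, Nanog from 155 and 167 to 210 and 220 CPM, and Lin28a, an RNA-binding protein that blocks let-7, from 109 and 107 to 288 and 299 CPM. The factors Klf2, Klf4 and Klf5 fell: Klf2 from 45.3 and 45.6 to 16.0 and 17.7 CPM, Klf4 from 98.3 and 90.8 to 63.5 and 57.3 CPM, and Klf5 from 77.0 and 66.3 to 42.9 CPM in both libraries. Sox2, Tbx3, Tfcp2l1, Prdm14 and Fgf4 were the other 5 that were lower. The median, 0.45, ranged from 0.04 to 0.48 over 14 alternative fits.

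Signalling genes that act in early patterning followed. In the Nodal and BMP list, 15 of 24 were higher and 5 lower (median 0.57). Lefty1 and Lefty2, secreted inhibitors of Nodal that are also its targets, went from 19.6 and 16.1 to 157 and 169 CPM and from 60.7 and 61.5 to 153 and 144 CPM. Nodal itself rose less, from 104 and 105 to 160 and 143 CPM, and its signal carrier Smad3 from 12.6 and 10.8 to 38.3 and 37.1 CPM. The BMP targets Id1 and Id3 rose from 123 and 134 to 210 and 231 CPM and from 123 and 131 to 259 and 270 CPM. The BMP receptors Bmpr1a and Bmpr2 fell, by 0.74 and by 0.92 on the log2 scale.

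Of 37 Wnt ligands, receptors and antagonists, 18 were higher and 11 lower (median 0.41). Wnt7b went from 2.26 and 2.17 to 29.6 and 26.3 CPM, and Wnt3, the ligand that starts the primitive streak, from 1.76 and 1.86 to 10.3 and 6.49 CPM. The secreted antagonist Sfrp5 rose from 0.377 and 0.310 to 7.98 and 5.05 CPM. Axin2, a feedback target of β-catenin, was lower, at 27.8 and 22.9 against 15.3 and 10.8 CPM, with a wild-type mean of 78.1 CPM. The count of higher genes ranged from 12 to 24 over 14 alternative fits.

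Of 16 genes that respond to ERK, the kinase downstream of the inhibited MEK1/2, 8 were higher and 2 lower. Spry4, an inhibitor of the pathway, rose from 9.17 and 7.28 to 69.9 and 67.0 CPM, and stood at a mean of 98.8 CPM in wild-type cells. Etv4, an ETS factor, rose from 41.3 and 36.9 to 103 and 86.5 CPM, and Egr1, an immediate early gene, from 2.51 and 2.01 to 12.6 and 20.5 CPM. Fos, another immediate early gene, fell from 33.0 and 28.2 to 24.3 and 20.9 CPM. Spry1, Spry2, Junb and Ier2 missed the threshold.

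Developmental transcription factors are the classical Polycomb targets, and most were too low to test: 45 of 125 had no read in Pcgf6-/-, and 37 could be tested, of which 20 were higher and 6 lower (median 0.76). Gata2, a factor of blood and trophoblast, went from 5.27 and 7.28 to 42.6 and 48.6 CPM. Neurog1, a neuronal factor, rose from 0.126 and 0.310 to 5.65 and 5.41 CPM. Lower members included Cdx1, at 6.53 and 6.04 against 2.66 and 2.16 CPM, and En2, at 5.65 and 4.80 against 0.998 and 0 CPM. Of 39 Hox genes, 5 were tested, with 1 higher and 2 lower. Between 12 and 34 developmental factors were higher over 14 alternative fits, the count depending on how many low genes entered the test.

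Markers of other embryonic tissues gave no uniform direction. Of 16 primitive endoderm genes, 6 were higher and 4 lower: Serpinh1, a collagen chaperone, went from 15.3 and 14.3 to 108 and 110 CPM, and Afp, the fetal serum protein, from 15.2 and 14.9 to 1.33 and 3.96 CPM. Of 10 mesendoderm genes, 6 were higher and 2 lower, T (Brachyury) going from 0.628 and 1.24 to 6.99 and 6.13 CPM against a wild-type mean of 33.4 CPM. Of 11 neural genes, 7 were higher and 2 lower, among the former the neuronal tubulin Tubb3, which went from 68.8 and 60.4 to 178 and 182 CPM. Of 8 fibroblast genes 4 were higher and 1 lower, and of 6 blood and endothelial genes 1 was higher and 2 lower. The endothelial cadherin Cdh5 had no read in Pcgf6-/-, wild-type or Pcgf3/5-/- libraries and 11 and 15.5 CPM in the libraries labelled Pcgf3/5/6-/-, at least 63.2-fold more than in Pcgf6-/-. Summed levels, in Pcgf6-/- and then in the libraries labelled Pcgf3/5/6-/-, were 1242 and 1231 against 1413 and 1514 CPM for primitive endoderm, and 250.2 and 255 against 565 and 536 CPM for mesendoderm. Neural genes summed to 393 and 388 against 461 and 484 CPM, with Sox1, Neurog2 and Olig2 at 0 in both lines. Blood and endothelial genes summed to 311 and 315 against 266 and 238 CPM, with the globin Hba-a1 and the leukocyte gene Ptprc at 0 in both. The part of other cell types in the results was not tested.

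Genes of the 2-cell-like state, a rare state of stem cell cultures that resembles the embryo at first genome activation, went the other way. Of 17 tested, 15 were lower, 1 higher and 1 not called, with a median of -1.04 against -0.0064 for all genes. Their summed level was 1504 and 1623 CPM in Pcgf6-/- and 943 and 961 CPM in the libraries labelled Pcgf3/5/6-/-, still above the wild-type pair at 285 and 279 CPM. The 8-library fit gives each line's own change from wild-type, in comparisons that share libraries with each other and with the main one: all 17 were raised in Pcgf6-/- (of all genes, 32.9%), 16 were raised in the libraries labelled Pcgf3/5/6-/- (38.3%, of 65.7% called in either direction), and 15 were lowered in Pcgf3/5-/- (15.4%).

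Dux, the homeobox factor that starts the state, went from 70.3 and 68.2 to 30.6 and 24.9 CPM, a log2 fold change of -1.32 (SE 0.12). Zfp352, a target of DUX (chromosome 4, 89885511 to 89892393), fell from 112 and 113 to 22.6 and 19.8 CPM. Tdpoz3 fell from 60.2 and 60.3 to 14 and 8.29 CPM, and the deubiquitinase genes Usp17la, Usp17lc and Usp17ld fell too, by 1.38 to 2.41 on the log2 scale. Zscan4 genes, the best known markers, changed less and not all one way: Zscan4d fell by 0.35 on the log2 scale (SE 0.09), whereas Zscan4f was higher, at 39.4 and 44.9 against 57.5 and 51.2 CPM. Zscan4, Usp17 and Tdpoz genes are near-identical copies, so the split of reads among them is uncertain. Over 14 alternative fits between 10 and 16 members of the list were lower.

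The Zfp352 upstream region is printed beside that of Krt7 to show how poor in CG the promoters of 2-cell-like genes were: their median was 1.5 CG pairs in the 300 bases searched, over 10 genes with an entry, against 20 for all genes tested. It lies at chr4:90218570-90218819 on GRCm38.p6 (RefSeq, plus strand) and holds 2 CG pairs, in capitals, next to a short unit repeated many times.
Zfp352: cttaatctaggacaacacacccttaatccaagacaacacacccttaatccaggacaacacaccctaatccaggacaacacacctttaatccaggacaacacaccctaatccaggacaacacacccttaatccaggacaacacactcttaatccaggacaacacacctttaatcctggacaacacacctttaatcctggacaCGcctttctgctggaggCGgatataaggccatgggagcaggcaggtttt

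Germline genes, the group most associated with PCGF6, did not rise further as a group. Of 20 tested, 12 were lower, 4 higher and 4 not called, with a median of -0.35. They summed to 2699 and 2927 CPM in Pcgf6-/-, 2233 and 2238 CPM in the libraries labelled Pcgf3/5/6-/-, and 477 and 459 CPM in the wild-type pair. Against wild-type, 19 of 20 were raised in Pcgf6-/- (of all genes, 32.9%) and 18 in the libraries labelled Pcgf3/5/6-/- (of all genes, 38.3%). These comparisons share the wild-type libraries. Between 9 and 15 were lower and between 1 and 4 higher over 14 alternative fits.

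The lower members included genes of meiotic chromosomes. Sycp1, the central filament of the synaptonemal complex (chromosome 3, 102622422 to 102740023), went from 77.5 and 78.9 to 20.3 and 16.9 CPM, a log2 fold change of -2.06 (SE 0.13), and stood at a mean of 2.22 CPM in wild-type cells. Sycp3 (chromosome 10, 87922314 to 87935981), of the lateral element, went from 102 and 113 to 43.9 and 49.0 CPM, and Hormad1, an axis protein, from 164 and 183 to 67.2 and 69.2 CPM, which is near its wild-type mean of 72.5 CPM. Dazl, an RNA-binding regulator of germ cells, fell from 173 and 193 to 78.8 and 73.9 CPM. Smc1b and Stag3, of meiotic cohesin, fell by 0.69 and by 0.99 on the log2 scale.

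Genes of the piRNA pathway in the list differed in their calls. Ddx4 (Vasa), a helicase, was at 226 and 253 against 253 and 230 CPM, and Tdrkh and Tdrd1, of the same pathway, also missed the threshold. Their log2 differences were 0.02 (SE 0.09), -0.03 (SE 0.08) and 0.14 (SE 0.15). Mael was higher, at 195 and 222 against 250 and 260 CPM, and Mov10l1, a helicase of the pathway, was lower by a log2 fold change of -0.20. Mei1, needed for meiotic breaks, was the 1 member higher by over 2-fold, at 13.2 and 11.2 against 38.6 and 30.6 CPM.

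Germline promoters are shown because PCGF6 complexes meet DNA through MGA and MAX, which bind the E-box CACGTG, and through E2F6, which binds TCCCGC. Of the 20 genes, 18 had a PCGF6 peak within 2.5 kb of a start in wild-type cells (7.67% of all tested genes). A RING1B peak lay there at 15 in wild-type cells, 2 in Pcgf6-/- and 0 in the sample labelled Pcgf3/5/6-/-. Over all tested genes the RING1B shares were 15.6%, 12.2% and 6.76%. Of the 19 with a RefSeq promoter entry, 11 held CACGTG in the 300 bases searched, 8 held TCCCGC on either strand and 7 held both; over all 10771 tested genes with an entry the shares were 10.1% and 34.7%. Both sequences below are the 250 bases before the start on GRCm38.p6 (RefSeq), Sycp1 at chr3:102936101-102936350 on the minus strand and Sycp3 at chr10:88459337-88459586 on the plus strand, with the E-box and the E2F6 motif, whose reverse complement is GCGGGA, in capitals. Sycp1 has 1 E-box and Sycp3 has 2 and a GCGGGA. Only called members with an E-box in these 250 bases could be printed, so its presence in both follows from the choice. A match describes letters, not binding.
Sycp1: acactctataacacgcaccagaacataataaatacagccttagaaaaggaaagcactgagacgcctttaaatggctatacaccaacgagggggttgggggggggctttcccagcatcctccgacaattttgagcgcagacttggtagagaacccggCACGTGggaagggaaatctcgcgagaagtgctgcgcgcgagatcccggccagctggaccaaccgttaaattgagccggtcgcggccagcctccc
Sycp3: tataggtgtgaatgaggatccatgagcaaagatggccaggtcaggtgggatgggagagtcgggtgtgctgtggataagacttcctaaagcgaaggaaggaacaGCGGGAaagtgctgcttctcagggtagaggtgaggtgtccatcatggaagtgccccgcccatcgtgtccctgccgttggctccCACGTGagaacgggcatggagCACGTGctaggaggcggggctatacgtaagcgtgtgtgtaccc

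**Figure D3:**
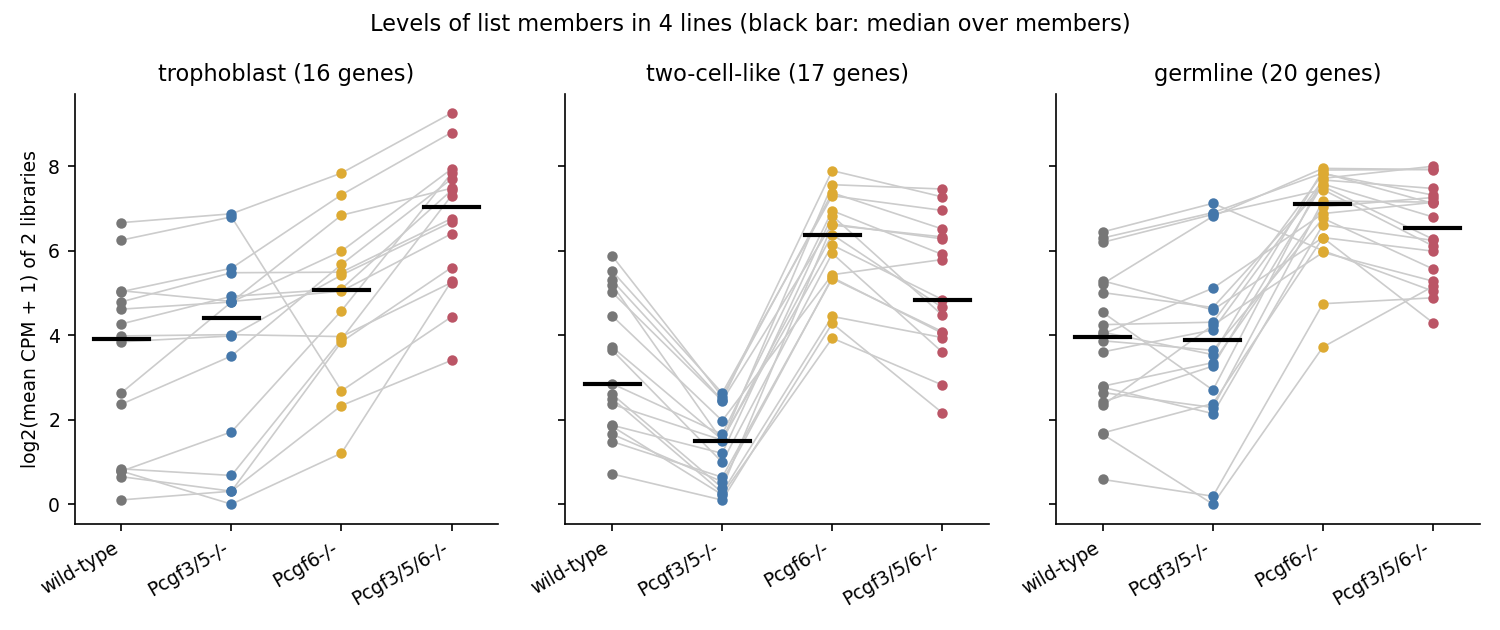
Mean CPM of 2 libraries on a log2(CPM + 1) scale (vertical axis) for the tested trophoblast (16), 2-cell-like (17) and germline (20) genes in 4 lines, as labelled (horizontal axis); grey lines join a gene's values and black bars are medians over genes. The trophoblast median is highest in the libraries labelled Pcgf3/5/6-/-, while 2-cell-like and germline medians are highest in Pcgf6-/-.

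X-linked and autosomal genes of the Mageb and Prame families, cancer-testis genes with many near copies, were lower in 9 of 13 cases, higher in 1 and not called in 3 (median -1.09). Pramef25 went from 101 and 108 to 22.3 and 21.6 CPM, and Mageb4 from 192 and 198 to 73.8 and 86.5 CPM. Genes raised in Pcgf6-/- were also split by PCGF6 binding. Of the genes at least 2-fold higher in Pcgf6-/- than in wild-type cells, 292 had a PCGF6 peak, of which 115 were called lower and 65 higher in the libraries labelled Pcgf3/5/6-/- (median -0.21), and 2380 had none, of which 1061 were lower and 532 higher (median -0.42). Both sets were chosen for high values in the Pcgf6-/- libraries that the main comparison uses again, so a median below 0 is no sign of a change back.

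Genes of protein synthesis and energy metabolism were higher by small folds. Of 84 ribosomal protein genes 78 were higher and 2 lower (median 0.82), of 82 oxidative phosphorylation genes 69 were higher and 3 lower (median 0.50), and of 21 glycolytic genes 16 were higher and 1 lower (median 0.67). Gapdh, for example, went from 79.2 and 93.1 to 190 and 199 CPM, and Pdk1, the kinase that holds pyruvate out of mitochondria, from 44.5 and 43.2 to 169 and 149 CPM. Ribosomal protein genes summed to 10871 and 12637 CPM in Pcgf6-/- and 19683 and 21190 CPM in the libraries labelled Pcgf3/5/6-/-. These lists moved with the density of reads along a gene, a trend that was not a steady rise. By CPM per kb of exon, the median log2 fold change was 0.22 in the sparsest decile of genes, -0.17 in decile 6 and 0.35 in the densest decile. Of 81 ribosomal protein genes, 63 lay in the densest decile. The same decile differed between the libraries of a line too, by -0.14 between Pcgf6-/- replicates 1 and 2 and by -0.29 between those of Pcgf3/5-/-.

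With offsets that remove the trend by read density, 67 ribosomal protein genes were higher (median 0.44), 41 oxidative phosphorylation genes were higher and 12 lower (median 0.14), and 14 glycolytic genes were higher (median 0.32). With the spread of all 14 libraries, 28 ribosomal protein genes, 10 oxidative phosphorylation genes and 13 glycolytic genes were called higher. The part of library preparation in these differences was not tested.

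The remaining lists were mixed or small. Of 27 lysosome genes 12 were higher and 7 lower (median 0.17), of 18 p53 targets 10 and 5 (median 0.47), and of 18 genes of the integrated stress response 6 and 4 (median 0.15). Of 23 cholesterol synthesis genes 8 were higher and 8 lower, of 9 DNA methylation enzymes 5 and 1, and of 9 cell cycle inhibitors and D cyclins 4 and 3. Of 58 clustered protocadherins 12 could be tested, with 1 higher and 5 lower. Pmaip1 (Noxa), a p53 target that promotes cell death, fell from 158 and 160 to 68.9 and 58.4 CPM, while Trp53 itself rose from 244 and 266 to 436 and 448 CPM.

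Loss of Pcgf3 and Pcgf5 in cells with an intact Pcgf6 was measured by Pcgf3/5-/- against wild-type cells. In this contrast the median log2 fold change was 0.28 over the 438 tested genes of chromosome 14. On the other autosomes it lay between 0 and 0.07. What sets chromosome 14 apart was not tested, and its genes enter the counts below. In the 8-library fit 5093 of 15497 genes differed (edgeR, 32.9%), 2714 raised (17.5%) and 2379 lowered (15.4%); with the wild-type pair counted as 1 sample the count was 3928. Of the 4808 genes higher in the libraries labelled Pcgf3/5/6-/- than in Pcgf6-/-, 759 (15.8%, Wilson 95% interval 14.8% to 16.8%) were raised in Pcgf3/5-/- and 729 (15.2%) lowered. Of the 4767 lower genes, 841 (17.6%) were lowered in Pcgf3/5-/- and 964 (20.2%) raised. Over all 14521 genes the shares were 17.6% raised and 15.5% lowered. Of the genes at least 2-fold higher, 21.4% (19.5% to 23.4%) were raised in Pcgf3/5-/- and 16.7% lowered, and of those at least 2-fold lower, 26.7% (24.7% to 28.9%) were raised and 15.7% lowered. In this fit, genes lower in the libraries labelled Pcgf3/5/6-/- were raised in Pcgf3/5-/- more often than all tested genes, by more than counting error. Over all differing genes, 16.7% were called in the same direction in Pcgf3/5-/- and 17.7% in the opposite direction. That order was not stable: with either Pcgf3/5-/- library left out, the same-direction share was the larger. Seen from the other side, of the 2558 genes raised in Pcgf3/5-/- 29.7% were higher and 37.7% lower in the libraries labelled Pcgf3/5/6-/-. Across genes, which are not independent replicates, the log2 fold changes of both contrasts had a Pearson correlation of -0.05 and a Spearman correlation of 0.004.

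The difference between both contrasts was tested gene by gene as an interaction, and 7551 of 15497 genes passed (48.7%), 3613 upward and 3938 downward; with the wild-type pair as 1 sample 6709 passed. Of 142 genes chosen by the naming rule, which picks large changes of the main comparison and the ends of the interaction, 112 passed, a share that the choice raises. Of the 73 called in both contrasts 45 moved in opposite directions and 28 in the same, a split that the choice affects too. Over all differing genes of the main comparison the shares were 17.7% opposite and 16.7% the same. In the trophoblast list 14 of 16 passed upward, beside 7 members raised and 1 lowered in Pcgf3/5-/-. In the 2-cell-like list 10 of 17 passed upward and 1 downward, with a median log2 fold change of -2.83 in Pcgf3/5-/- against -1.04 in the main comparison. In the germline list 3 passed upward and 12 downward. These list counts, and those against wild-type given above, were the same with the wild-type pair as 1 sample.

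**Figure D4:**
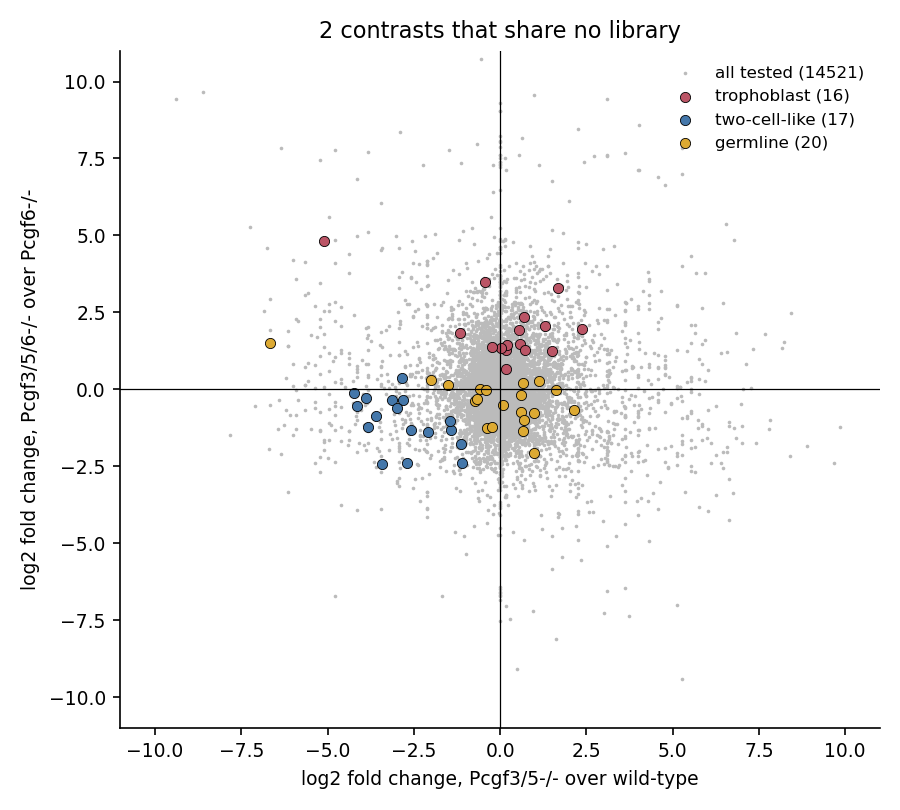
Log2 fold change of Pcgf3/5-/- over wild-type (horizontal axis) against that of the libraries labelled Pcgf3/5/6-/- over Pcgf6-/- (vertical axis) for 14521 genes, in grey, with trophoblast, 2-cell-like and germline genes in colour. The grey cloud has no slope (Pearson -0.05), trophoblast genes all lie above 0 on the vertical axis, and 2-cell-like genes all lie left of 0 on the horizontal axis.

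Promoter occupancy by Polycomb proteins was compared between genes that rose and fell, with 1 ChIP sample for each antibody and line and peaks as the authors called them, counted within 2.5 kb of an annotated start for 13536 genes. In wild-type cells a RING1B peak lay at 38.0% (Wilson 95% interval 35.7% to 40.4%) of the 1648 genes at least 2-fold higher, at 12.8% (11.2% to 14.7%) of the 1457 genes at least 2-fold lower and at 15.6% of all genes. SUZ12 had the same order, 43.9%, 13.6% and 16.7%, as did H3K27me3, at 37.9%, 8.72% and 12.2%. Peaks of PCGF6 itself lay at 7.83% (6.63% to 9.22%), 5.97% (4.87% to 7.31%) and 7.67%, with intervals that overlapped, and PCGF3 had only 223 peaks in all. For RING1B, SUZ12 and H3K27me3 the higher genes thus held peaks more often than the lower genes did, by more than the intervals allow. Intervals cover counting error only.

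RING1B peaks numbered 5563 (9140 kb) in Pcgf6-/- and 3068 (3812 kb) in the sample labelled Pcgf3/5/6-/-, and SUZ12 peaks 6704 and 5364. More sequence was covered in the sample labelled Pcgf3/5/6-/- for H3K27me3, with 13041 (8253 kb) and 14126 (18172 kb) peaks, and for H2AK119ub1, with 5287 (4528 kb) and 14353 (18610 kb). A peak count depends on sample depth and background, which cannot be told apart here from the genotype. Of 810 genes with a RING1B peak in Pcgf6-/- only, 56.9% were higher and 11.4% lower in expression, with a median log2 fold change of 0.67. Where both samples had the peak (837 genes) the shares were 45.2% and 17.6%, and where neither had (11811 genes) they were 31.5% and 34.5%. For SUZ12 peaks seen in Pcgf6-/- only (509 genes) 59.9% were higher, against 47.8% with the peak in both samples and 31.1% in neither. For H3K27me3 peaks seen in Pcgf6-/- only (323 genes) 66.6% were higher, against 52.2% in both and 30.7% in neither.

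**Figure D5:**
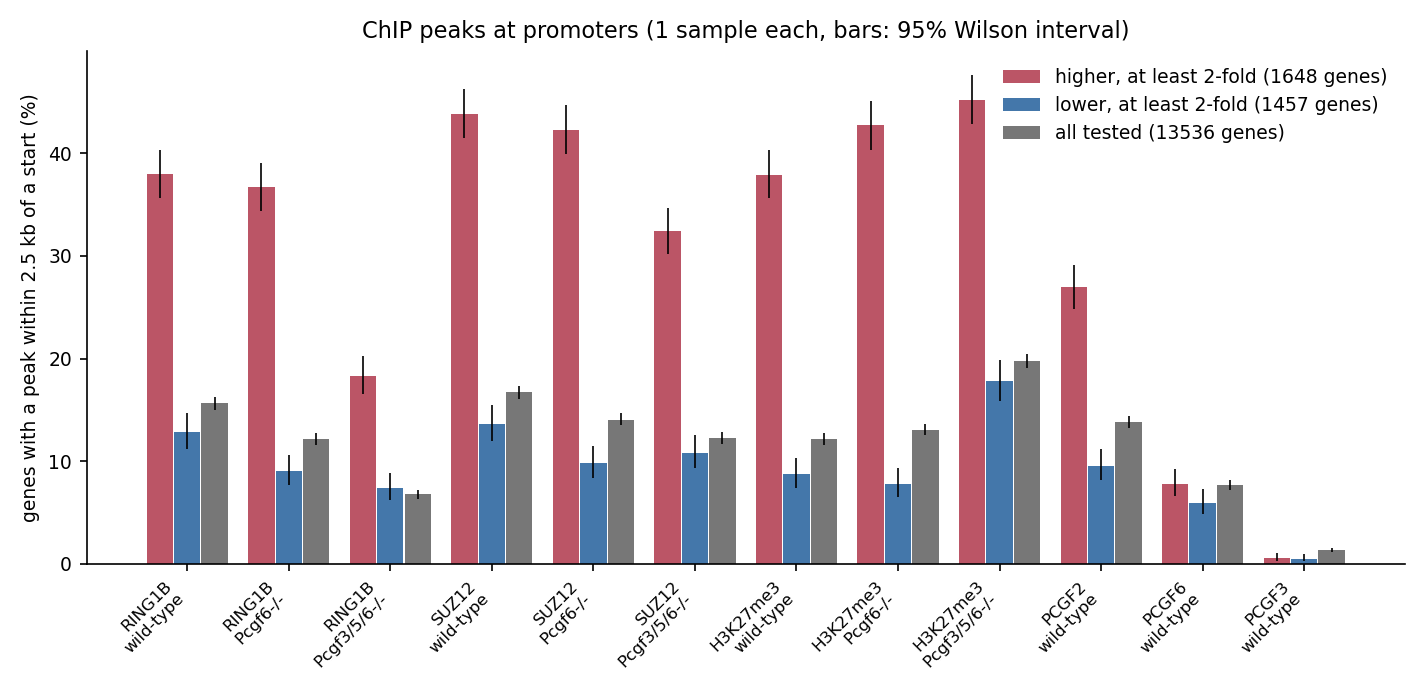
Share of genes with a ChIP peak within 2.5 kb of an annotated start (vertical axis, percent, from 0) for genes at least 2-fold higher (red) or lower (blue) in the libraries labelled Pcgf3/5/6-/- than in Pcgf6-/-, and for all genes tested (grey), by antibody and line; bars have Wilson 95% intervals and rest on 1 sample each. Red bars exceed blue and grey ones for RING1B, SUZ12, H3K27me3 and PCGF2 in every line shown, while for PCGF6 and PCGF3 the intervals of red and blue bars overlap.

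Single genes show how far occupancy and expression went together. Cdkn1c, Igf2, Dlx3, Wnt7b and Sfrp5 had RING1B, SUZ12 and H3K27me3 peaks in wild-type, Pcgf6-/- and Pcgf3/5/6-/- samples alike, and Hand1 did as well. Dusp9 had RING1B, SUZ12 and H3K27me3 peaks in Pcgf6-/- and none of the 3 in the sample labelled Pcgf3/5/6-/-. An H2AK119ub1 peak went the other way at Dusp9, called in the sample labelled Pcgf3/5/6-/- and not in wild-type or Pcgf6-/- cells. Krt7 had SUZ12 and H2AK119ub1 peaks in Pcgf6-/- and neither in the sample labelled Pcgf3/5/6-/-. Its RING1B peak was called in wild-type cells only, and its H3K27me3 peak in wild-type, Pcgf6-/- and Pcgf3/5/6-/- samples alike. Plac1 had no peak of the 4 antibodies in any of these lines. Tfap2c had no annotated start to count at. In the trophoblast list a RING1B peak lay at 9 of 14 genes with an annotated start in wild-type cells, 8 in Pcgf6-/- and 4 in the sample labelled Pcgf3/5/6-/-. In the 2-cell-like list 1 of 12 had one in each. Over all tested genes the share with a RING1B peak was 15.6% in wild-type cells, 12.2% in Pcgf6-/- and 6.76% in the sample labelled Pcgf3/5/6-/-. Called peaks were thus fewer in the last sample over all genes, though not in every list. Among 37 developmental transcription factors, 26 had a RING1B peak in Pcgf6-/- and 27 in the sample labelled Pcgf3/5/6-/-. How far fewer called peaks set the trophoblast count was not tested.

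Base content of the promoters differed between the classes. In the 300 bases around the start (RefSeq, GRCm38.p6, 250 before and 50 after), genes at least 2-fold higher had a median of 18 CG pairs and genes at least 2-fold lower had 10, against 20 for all genes tested and 7 for all 27025 entries. CACGTG lay in 9.21% and 6.85% of the higher and lower promoters, and TCCCGC, on either strand, in 35.4% and 22.2%. By chromosome, leaving aside the 3 Y-linked genes (median 9.44), the median log2 fold change ran from -0.29 (chromosome 13) to 0.14 (chromosomes 7 and 15), with -0.20 on the X.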

How the data were processed

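The authors deposited whole-number counts of reads per gene symbol, without normalization, for 14 poly-A RNA-seq libraries made by a modified SMART-seq2 method, per the labels' protocols. The submitters' processing notes name mm9, TopHat2 2.1.1, Bowtie 1.2.2, HTSeq 0.7.2 and MACS2 2.1.1, with no role given; whether counting used strand is not given in the sources used here, so overlapping genes such as Col4a1 and Col4a2, and near-identical copies, are uncertain. The deposited peak lists give −log10 q values per peak, per the file headers, 1 sample each. Whole tables were fitted with edgeR 4.0.16 (R 4.3.3): filterByExpr, TMM factors, quasi-likelihood test, Benjamini-Hochberg threshold 0.05, on 4 libraries for the main comparison and 8 for the second contrast and the interaction. SE is the log2 fold change divided by the root of F. Exact permutation of 2 against 2 cannot pass the threshold. Gene positions are GENCODE M1 (mm9).

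On simulated counts for the main comparison (14292 genes, 200 changed) the test recovered 18.0% of 1.25-fold, 70.8% of 1.5-fold, 82.0% of 2-fold and 95.9% of 4-fold changes, with 8 false calls. The simulation gave every library the same spread and changed far fewer genes than the 9575 called in the data. Its rates therefore check the code and do not carry over to the data. Members and lists were chosen with earlier results of these data known. Named genes were the 3 targeted genes, the 10 largest folds in each direction at a mean of at least 3 log2 CPM without overlap, the 5 largest CPM differences in each direction at 2-fold or more, up to 4 called members of each list at a mean of at least 1 log2 CPM, and the 3 genes at each end of the interaction; Zscan4d and Zscan4f, Nanog, Kcnq1ot1 and other list members beyond these were named after their values were seen. Replicate numbers did not pair the libraries of the main comparison (correlation of deviations 0.05; 0.30 between Pcgf3/5-/- and Pcgf6-/-, which enter the interaction). Floors and intervals cover counting error only. Alternatives changed scaling, tool, filter, offsets, depth, libraries and thresholds, and DESeq2 1.42.0 was the other tool.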

Additional observations from a re-analysis of the deposited data

Results flagged for a closer look

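For 18 named genes the change from Pcgf6-/- to the libraries labelled Pcgf3/5/6-/- ran against the change from wild-type to Pcgf3/5-/-, by the interaction test (edgeR, adjusted p from 1.21e-12 to 4.40e-05), with both contrasts past the threshold. With the wild-type pair summed as 1 sample, all 18 remained past the threshold in the interaction (adjusted p from 1.72e-13 to 2.41e-05) and in the second contrast. The 18 are the 3 genes at each end of the interaction and further named genes picked by outcome. Those had to pass the interaction and both contrasts, in opposite directions, by at least 2-fold in each, at a mean of at least 3 log2 CPM. Opposite directions and small p-values thus follow from the choice. Values are the interaction on the log2 scale, the first contrast minus the second.

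Upward differences were found for Psmb8 (10.20), Hand1 (9.91), Dlx3 (9.62), Mei1 (8.15), Wnt7b (6.23) and Pdk1 (3.32). Pdk1 rose by 1.86 in the first contrast and changed by -1.46 in the second, where it went from 124.7 CPM in wild-type cells to 49.6 and 40.1 CPM. Psmb8, Hand1, Dlx3 and Mei1 had no read in Pcgf3/5-/-, so their fitted values depend on the prior count and are no bounds.

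Downward differences were found for Gm773 (-12.07), 1700008I05Rik (-11.08), 4921525O09Rik (-10.73), Ccdc152 (-7.81), Magea8 (-7.66), 4930550L24Rik (-7.61), Mgat4c (-5.74), Hus1b (-5.48), Cox7b2 (-5.26), Gm5622 (-5.03), Nlrp14 (-4.56) and Cd34 (-3.93). Gm773, 1700008I05Rik and 4921525O09Rik had no read in wild-type cells, so the same limit holds for them. Cox7b2 stood at a mean of 6.86 CPM in wild-type cells, 31.4 CPM in Pcgf3/5-/-, 48.5 CPM in Pcgf6-/- and 5.72 CPM in the libraries labelled Pcgf3/5/6-/-.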

How the results depend on the processing

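The main count of 9575 genes stayed within 1.5 times of itself under 15 of 16 alternative fits and thresholds, from 6950 with all 14 libraries to 10151 without a filter, and was 3390 with an absolute log2 fold change of at least 1; DESeq2 gave 7118, and leaving out 1 library gave 7874 to 9061. The count for Pcgf3/5-/- against wild-type (5093) was 3236 with DESeq2, 2952 with all 14 libraries, 3259 after thinning to the smallest library, 3243 at an adjusted p below 0.01, 1962 with a log2 fold change of at least 1, and 3154 to 6415 without 1 library: 3229 and 3154 without wild-type replicate 1 and 2. Without Pcgf3/5-/- replicate 2, 60.1% of its calls were higher against 53.3% in the fit as planned. The interaction count (7551) was 3750 with a log2 fold change of at least 1 and 6215 to 8574 without 1 library.

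The share of genes called in the same direction in both contrasts (16.7%) was 10.9% with DESeq2, 19.6% with the replicate block, 19.6% with loess offsets by mean count, 20.6% with offsets by count per exonic base, 11.6% after thinning, 12.6% with the wild-type pair summed, 10.8% at an adjusted p below 0.01, 11.8% with a log2 fold change of at least 1, and 10.0% to 24.2% without 1 library. The offsets by count per exonic base and the summed wild-type pair were chosen after seeing the data. RING1B peaks lay at 20.2% of all higher genes, 17.4% with peaks at −log10 q of at least 10 and 38.0% at 2-fold or more; for lower genes the values were 9.68%, 7.77% and 12.8%, and 8.80% with DESeq2 calls.

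The replicate number as a block gave 9793 calls in the main comparison, 5952 for Pcgf3/5-/- against wild-type and 8280 for the interaction; the libraries share only a number. Of 1959 comparisons of 142 named genes with an alternative, 1915 kept their call, 41 lost it, 3 gained it and 0 changed direction. The losses and gains fell on 14 genes, among them Pcgf3, Csnk2b, Hdac1, Jarid2, Col1a2 and Nupr1. Beyond the named genes, direction did depend on the offsets. Of all calls of the main comparison, 139 had the other sign with loess offsets by mean count and 215 with offsets by count per exonic base. Fits with 1 library in an arm assume that it varies like the other groups. Depth limits low genes: over a group, 3 counts are 0.519 CPM in the libraries labelled Pcgf3/5/6-/- and 0.208 CPM in Pcgf6-/-.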
